A study of Mus musculus with 6 samples.

Results

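The genes described here are the mouse genes whose symbols begin with Zfp and a number, the naming series of zinc finger proteins, as read in germinal centre B cells with and without a conditional deletion of Lsd1. Members were the rows of the deposited count table with such a symbol and a mean of at least 2 counts per 1000000 of the library total (CPM) over the 6 libraries. This gave 279 members out of 360 Zfp-named rows, in a table of 15861 genes, with 1 further gene left out by name. The 81 rows below the limit are not described. The rule used only the symbol and the mean level over both genotypes, so the members were chosen by their level, which is given as a description. The difference between the genotypes was not used directly, but a gene can pass the limit through the group where it is high. Zfp365 and Zfp862-ps lay below 2 CPM in every WT library, and Zfp97 in every KO library. Zfp169 and Zfp516 averaged below 2 CPM in WT. Zfp365 and Zfp97 also had the highest and the lowest fitted fold change of all members. Just inside the limit lay Zfp579 at a mean of 2.0001 CPM, Zfp623 at 2.0209 and Zfp708 at 2.1906, and just outside it lay Zfp219 at 1.9977, Zfp575 at 1.596 and Zfp467 at 1.5323.

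Most proteins of this series carry Cys2His2 zinc fingers, short modules in which a pair of cysteines and a pair of histidines hold a zinc ion and through which the protein contacts DNA or, in some members, RNA. A large subfamily adds a KRAB box, a domain that recruits the corepressor TRIM28 and with it the histone methyltransferase SETDB1 and the HP1 proteins. KRAB zinc finger genes have multiplied by tandem duplication and are known for silencing endogenous retroviruses and for guarding imprinted loci, and others of the series act in mRNA decay, translation or transcription.

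Polyadenylated RNA had been sequenced from B cells sorted as B220+ GL7+ FAS+ from C57BL/6 mice. The KO group held 3 mice of the genotype Cgamma-cre+/-; Lsd1 f/f, in which a Cre allele that the labels name Cgamma-cre acts on floxed Lsd1 alleles. The WT group held 3 mice of the genotype Lsd1 f/f, which carry the same floxed alleles and no Cre. The series describes the mice as littermates with 1 mouse per library, and neither age nor immunisation is given in the sources used here. Mice with Cre and unfloxed alleles were not analysed here, and the deletion and Cre itself cannot be told apart. Lsd1 is the older name of Kdm1a, the gene of a histone demethylase that works in repressor complexes with CoREST. Values listed for a group follow its replicate numbers 1 to 3.

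The KO libraries held 12325300, 14327654 and 13127510 counts, and the WT libraries 3786455, 5524852 and 3390805, so depth and genotype cannot be told apart. A member had a median of 183 counts in a KO library and 40 in a WT library. No member was at 0 in any library, but 8 to 45 members in a WT library and 0 in a KO library had fewer than 10 counts. Kdm1a stood at 81.7, 33.0 and 21.8 CPM in KO and 134, 85.1 and 92.5 CPM in WT after TMM scaling, which was used for all levels of single genes below. Its log2 fold change was -1.19 (SE 0.50) and missed the threshold (edgeR adjusted p = 0.393). In the library labelled KO 1 the level was nearer that of WT 2 than that of either other KO library. Counts cover the whole gene, exons outside the floxed part included. Without that library the log2 fold change of Kdm1a was -1.93 (edgeR adjusted p = 0.0169), and each statement on the KO group below includes it unless it says otherwise. The 9 germinal centre B cell markers were all present and summed to 7160 to 7310 CPM of the library total in KO and 6470 to 9330 CPM in WT. Markers of macrophages (10 of 10 present) summed to 198, 158 and 2460 CPM in KO and 246, 1100 and 2110 CPM in WT. Those of T cells (7 of 8 present, with Cd3d, Cd3g, Cd8a, Cd28 and Bcl11b at 0 in at least 1 library) summed to 156 to 212 CPM in KO and 179 to 249 CPM in WT. Nearly all of that sum was Lck, at 149, 182 and 197 CPM in KO and 207, 173 and 241 CPM in WT. The 8 markers of memory and naive B cells summed to 560, 267 and 343 CPM in KO and 167, 180 and 191 CPM in WT, and the 7 of plasma cells to 2130 to 2820 CPM in KO and 1610 to 2580 CPM in WT. Of the plasma cell markers only Irf4 showed no overlap, at 111, 48.8 and 91.1 CPM in KO and 47.0, 28.2 and 32.4 CPM in WT. The part of these cells, or of depth, in the differences below was not tested.

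The members bore out their name. Translations of the annotated coding transcripts (GENCODE vM21, the mm10 build of the files) were found for 276 members, and 161 of them held a KRAB box while 115 did not. Cys2His2 fingers numbered 0 to 36 per protein with a median of 10, and the median was 12 with a KRAB box and 7 without one. By the search pattern used, 8 members had no such finger, among them Zfp36, Zfp36l1 and Zfp36l2, whose fingers are of the CCCH kind. The members were spread over the genome unevenly: chromosome 7 held 69, chromosome 17 held 40 and chromosome 13 held 30. Transcripts of KRAB members were poor in GC, with a median of 41.4%, against 49.7% in members without KRAB and 49.5% over all tested genes. The codons of a finger differ between members, which the first finger of 4 members shows. Zfp287 and Zfp771 were the members with the lowest p on either side of the comparison. Zfp51 and Zfp85 had the widest range among WT libraries in the largest clusters on chromosomes 17 and 13. All 4 were chosen after their values were seen. Coding DNA is given 5′ to 3′ along the gene from the mm10 genome, in stretches set in advance to 84 bases each. Codons of the zinc-binding cysteines and histidines are in capitals.
Zfp287, chr11:62714895-62714978, minus strand: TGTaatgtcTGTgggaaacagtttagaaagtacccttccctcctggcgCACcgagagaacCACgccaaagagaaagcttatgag
Zfp771, chr7:127253856-127253939, plus strand: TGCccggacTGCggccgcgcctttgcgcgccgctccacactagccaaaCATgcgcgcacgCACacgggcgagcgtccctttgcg
Zfp51, chr17:21463770-21463853, plus strand: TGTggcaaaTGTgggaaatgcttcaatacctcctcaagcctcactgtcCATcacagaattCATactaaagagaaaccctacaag
Zfp85, chr13:67749622-67749705, minus strand: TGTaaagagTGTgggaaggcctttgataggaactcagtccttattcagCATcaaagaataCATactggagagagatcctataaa
The GC content of these stretches was 71.4% in Zfp771 and 48.8% in Zfp287, but 42.9% in Zfp51 and 39.3% in Zfp85.

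Most members were read at low levels. The mean over the 6 libraries ran from 2.0 to 393 CPM with a median of 13.1 CPM, 112 members lay under 10 CPM, 90 of those were KRAB genes, and 8 members reached 100 CPM. Per kilobase of exon, the median was 1.99 CPM in KRAB members and 4.76 in members without KRAB, against 7.39 over all tested genes. Zfp706, a gene of a small protein with a single finger, was the highest at 56.7 CPM per kb, and the mRNA decay factor gene Zfp36l1 was next at 53.4 CPM per kb. Zfp207, whose product binds the spindle checkpoint protein BUB3, stood at 48.2 CPM per kb, the RNA-binding protein gene Zfp106 at 37.4 and Zfp740 at 35.9. Zfp706 averaged 280 ± 44.1 CPM in KO and 285 ± 31.1 CPM in WT, and Zfp740 181 ± 16.2 CPM in KO and 184 ± 36.5 CPM in WT (SD, n = 3 each). In both genes the groups differed by less than the spread between mice.

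The comparison asks which of these genes differ in level when germinal centre B cells carry the Lsd1 deletion. None of the 279 members passed: 0 reached an adjusted p under 0.05 in the fit over all 10926 tested genes, of which 9 did, or 0.0824% (edgeR quasi-likelihood test, Benjamini-Hochberg). At an unadjusted p under 0.05, 12 members were higher in KO, or 4.3%, against 7.1% of all genes, and 1 was lower, or 0.358%, against 5.5%. The KO libraries all lay above the WT libraries for 25 members, or 8.96%, against 10.1% of all genes, and all below them for 2 members, or 0.717%, against 7.96%. Log2 fold changes ran from -1.34 to 2.12 with a median of 0.11, against 0.01 over all genes, and 170 members, or 60.9%, lay above 0, against 51.3%. At an unadjusted p the share of members was thus below that of all genes on either side. By overlap it was near that of all genes on the higher side and below it on the lower side, while the share above 0 was larger. Members were also read at lower levels, with a median of 12.9 CPM after TMM scaling against 35.0 CPM over all tested genes. The part of level in these shares was not tested. DESeq2 called 1 member, Zfp287, and limma-voom 0. In bulk RNA, fewer cells of a type and less RNA per cell cannot be told apart.

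**Figure D1:**
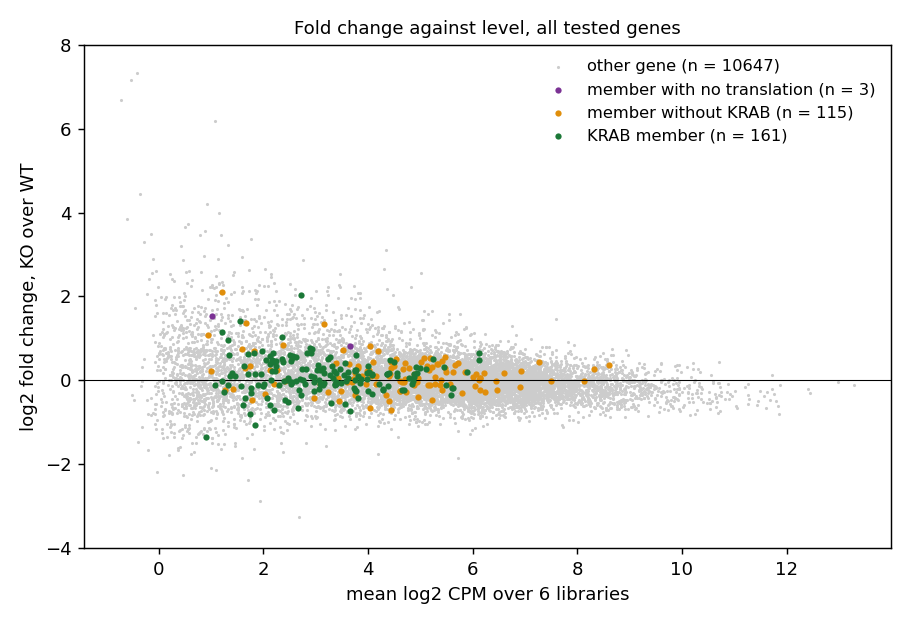
Log2 fold change of KO over WT (vertical axis) against the mean log2 CPM over 6 libraries (horizontal axis) for the 10926 tested genes. Green points are the 161 KRAB members, orange points the 115 members without KRAB, purple points the 3 with no translation and grey points all other genes. Most members lie at low to middle levels, while 8 reach a mean of 100 CPM. Their log2 fold changes lie between -1.34 and 2.12 over all members.

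KRAB members and the others gave like medians, a difference that was not tested. The median log2 fold change was 0.11 in KRAB members, with 97 of 161 above 0, and 0.10 in members without KRAB, with 70 of 115 above 0. In limma-voom 75.8% of KRAB members and 64.3% of the others lay above 0, against 51.5% of all genes. With the replicate number as a block these shares were 77.6%, 63.5% and 52.3%. At an unadjusted p under 0.05, 4 KRAB members (2.48%) were higher and 0 lower, and 6 members without KRAB (5.22%) were higher and 1 (0.87%) lower, against 7.1% and 5.5% of all genes. Every KO library lay above every WT library for 9 KRAB members, or 5.59%, and 14 members without KRAB, or 12.2%, against 10.1% of all genes. Every KO library lay below for 1 KRAB member, or 0.621%, and 1 without KRAB, or 0.87%, against 7.96%. The difference between the group means exceeded both groups' own ranges in 11 members, or 3.94%, against 9.78% of all genes.

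The member nearest to the threshold was Zfp287, a KRAB gene of 14 fingers on chromosome 11 (62700356 to 62731905, minus strand, mm10). Its levels were 13.9, 14.9 and 10.9 CPM in KO and 4.46, 3.32 and 1.87 CPM in WT. Every KO library lay above every WT library, and on the log2 scale the group means differed by more than the range within either group. The log2 fold change was 2.03 (SE 0.39), with an edgeR adjusted p of 0.0915, and over 16 alternative settings it ran from 1.62 to 2.31. It passed with DESeq2 (log2 fold change 2.0, adjusted p = 0.00691), by which 1.12% of all genes passed, and in edgeR with no filter on low counts (2.04, adjusted p = 0.0093), by which 0.586% did, and without WT 3 its edgeR adjusted p was 0.612.

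Some members of low level had larger or similar fold changes with wider errors. Zfp365, which takes part in the response to DNA damage and in which no Cys2His2 finger was found, stood at 7.66, 2.26 and 3.93 CPM in KO and 1.31, 1.17 and 0.623 CPM in WT. Zfp862-ps, a row named as a pseudogene, stood at 4.70, 2.04 and 3.07 CPM in KO and 1.05, 1.56 and 0.623 CPM in WT. The KRAB gene Zfp169 stood at 6.44, 3.88 and 3.35 CPM in KO and 1.05, 2.15 and 1.87 CPM in WT. In each of these the groups did not overlap, yet some WT values lay at or near the floor, since 3 counts are worth 0.543 to 0.885 CPM in a WT library and 0.209 to 0.243 CPM in a KO library. Their log2 fold changes were 2.12 (SE 0.61), 1.54 (SE 0.59) and 1.41 (SE 0.51), in that order, with edgeR adjusted p of 0.252, 0.316 and 0.305. Each of these genes passed the 2 CPM level limit only through its KO level.

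Zfp516 encodes a protein that binds LSD1 and activates genes of brown fat in mice. Its levels were 5.46, 3.88 and 5.35 CPM in KO and 2.88, 0.976 and 1.87 CPM in WT. The groups did not overlap, but the WT mean lay below the 2 CPM limit, so Zfp516 became a member only through its KO level. The log2 fold change was 1.37 (SE 0.51, edgeR adjusted p = 0.310). It was 1.46 after removal of a trend on transcript length and GC. Zfp318 is needed in mice for the long transcripts that give IgD on naive B cells. Its levels were 27.1, 9.02 and 8.49 CPM in KO and 6.29, 6.05 and 5.29 CPM in WT. The library labelled KO 1 stood far above the others, and that library also had the highest sum of memory and naive B cell markers. The log2 fold change was 1.33 (SE 0.47, edgeR adjusted p = 0.300) with it and 0.57 without it.

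Zfp74, a KRAB gene of 18 fingers, stood at 8.19, 7.33 and 6.78 CPM in KO and 4.72, 4.49 and 1.56 CPM in WT. Zfp33b had 20.1, 15.7 and 13.8 CPM in KO and 8.13, 9.76 and 10.3 CPM in WT. Zfp451, a SUMO ligase gene, had 29.3, 20.2 and 20.4 CPM in KO and 11, 18.6 and 13.4 CPM in WT. These 3 showed no overlap between the groups, at log2 fold changes of 1.03 (SE 0.44), 0.81 (SE 0.29) and 0.70 (SE 0.29), and edgeR adjusted p was 0.369, 0.300 and 0.351. The value of Zfp451 was 0.35 after removal of a trend on transcript length and GC. Zfp281, a transcription factor gene of stem cells, stood at 30.5, 16.0 and 20.1 CPM in KO and 11.8, 16.4 and 9.34 CPM in WT, with overlap between KO 2 and WT 2. Its log2 fold change was 0.82 (SE 0.32, edgeR adjusted p = 0.336), or 0.52 without KO 1.

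The remaining members whose KO libraries all lay above WT, beside Zfp106, Zfp207 and Zfp652 described below, are named here after their values were seen. Among KRAB genes the log2 fold changes were 0.96 for Zfp248, 0.75 for Zfp949, 0.66 for Zfp712, 0.60 for Zfp369, 0.51 for Zfp869 and 0.42 for Zfp382. Among members without KRAB they were 0.75 for Zfp11, 0.73 for Zfp385a, 0.71 for Zfp580, 0.54 for Zfp280b, 0.42 for Zfp407, 0.24 for Zfp3 and 0.19 for Zfp263. Of these, Zfp869 and Zfp280b had an unadjusted p under 0.05. A fitted change of at least 2-fold in either direction was found in 11 of the 279 members, against 615 of the 10926 tested genes. Some of the 11, Zfp365, Zfp862-ps, Zfp169, Zfp516 and Zfp97 among them, reached the level limit only through the group where they were high.

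**Figure D2:**
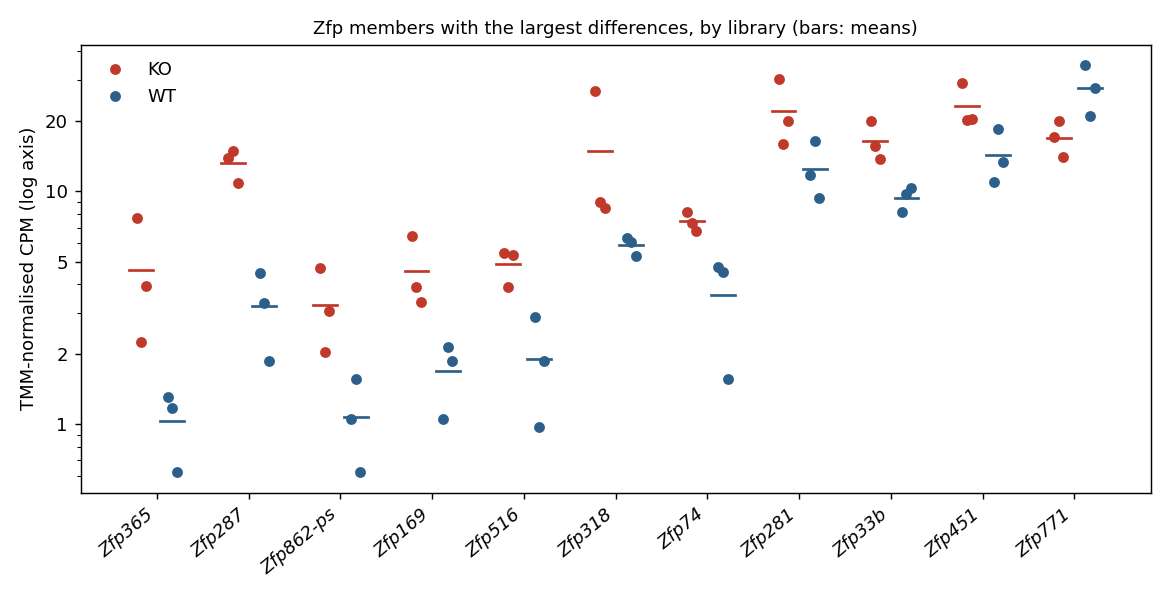
TMM-normalised CPM (log axis) of 11 members in each library, KO in red to the left of WT in blue, with group means as bars. The first 10 are the members with the largest positive differences at an unadjusted p under 0.05, and Zfp771 is the 1 member on the other side. In Zfp287 the KO values of 10.9 to 14.9 CPM lie clear of the WT values of 1.87 to 4.46 CPM.

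On the lower side, Zfp771 was the 1 member at an unadjusted p under 0.05. This gene of 8 fingers on chromosome 7 (127244274 to 127254803, plus strand) had a transcript GC content of 68.7%. Its levels were 17.1, 20.0 and 14.0 CPM in KO and 34.9, 21.1 and 27.7 CPM in WT, with KO 2 and WT 2 close to each other and no overlap. The log2 fold change was -0.71 (SE 0.27, edgeR adjusted p = 0.313), and it was -0.33 after removal of a trend on transcript length and GC from each library. Zfp316, a KRAB gene named here after its values were seen, was the other member whose KO libraries all lay below WT, at a log2 fold change of -0.43. The next members by p were Zfp395, Zfp787, Zfp444 and Zfp821, with log2 fold changes of -0.67, -0.50, -0.46 and -0.40, and in all 4 the groups overlapped. Further down by p came Zfp524 at -0.48, Zfp446 at -0.54 and Zfp873 at -0.67. Zfp524 was at -0.09 with the length and GC trend removed, Zfp446 at -0.11 with all libraries thinned to the smallest total, and Zfp873 at 0.04 without WT 2. The lowest log2 fold change, -1.34 in the KRAB gene Zfp97, also rested on WT 2. Zfp97 stood at 1.36, 1.76 and 1.07 CPM in KO and 0.787, 8.59 and 0.934 CPM in WT, and without WT 2 its log2 fold change was 0.70.

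The members that act on RNA came next. The CCCH proteins of the Zfp36 family bind AU-rich elements and speed mRNA decay, and Zfp36l1 and Zfp36l2 are known to guard quiescence in developing B cells. Zfp36 stood at 130, 111 and 79.8 CPM in KO and 144, 67.6 and 74.4 CPM in WT, and Zfp36l1 at 210, 142 and 199 CPM in KO and 178, 137 and 90.9 CPM in WT. Log2 fold changes were 0.17 (SE 0.31) for Zfp36, 0.44 (SE 0.26) for Zfp36l1 and 0.20 (SE 0.28) for Zfp36l2, and 0 of 3 passed. With the length and GC trend removed they were 0.38, 0.47 and 0.42. In all 3 the groups overlapped.

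Of the 9 RNA and translation factors 0 passed, and the median log2 fold change was 0.03. Zfp106 had 449, 423 and 449 CPM in KO and 364, 346 and 311 CPM in WT, and Zfp207 had 343, 355 and 353 CPM in KO and 307, 341 and 229 CPM in WT. In both genes every KO library lay above every WT library, at log2 fold changes of 0.37 (SE 0.18) and 0.26 (SE 0.20). After removal of the length and GC trend these values were 0.14 and 0.01. Zfp638, which with the HUSH complex silences unintegrated retroviral DNA, varied widely, at 108, 95.6 and 62.4 CPM in KO and 45.4, 172 and 92.8 CPM in WT. Its lowest and highest libraries were both WT, and its log2 fold change was -0.22 (SE 0.46), or -0.46 with the length and GC trend removed. Zfp598, the sensor of collided ribosomes, had a log2 fold change of -0.30, and Zfp622 and Zfp593, which serve maturation of the large ribosomal subunit, -0.02 and 0.03. With the length and GC trend removed Zfp598 was at -0.01, Zfp622 at -0.28 and Zfp593 at 0.36. The values were 0.22 for Zfp326 of the DBIRD complex, 0.30 for the splicing factor gene Zfp830 and -0.11 for Zfp346, whose product binds double-stranded RNA.

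Further transcription regulators without KRAB, beside Zfp318, Zfp281 and Zfp516 above, had log2 fold changes between -0.28 and 0.44. Zfp335, which is needed for T cell maturation in mice, had a log2 fold change of -0.24, Zfp148 one of 0.07 and Zfp384, whose human counterpart is a fusion partner in acute B cell leukaemia, one of 0.09. Zfp592 and Zfp687, which bind ZMYND8, stood at 0.23 and -0.10, and Zfp644, which binds the methyltransferase pair G9a and GLP, at 0.07. Zfp143, an activator of small nuclear RNA genes, stood at 0.21, and Zfp410, a dedicated activator of Chd4, at -0.28. With the length and GC trend removed Zfp410 was at -0.57. Zfp608 and Zfp609, a pair of paralogues of which Zfp609 binds the cohesin loader, stood at 0.07 and 0.44. Groups overlapped for all 10 of these genes. Zfp91, a ubiquitin ligase gene, had a log2 fold change of 0.18, also with overlap. Of the corepressor partners, Zfp652, whose product recruits CBFA2T3, had 15.5, 11.6 and 14.9 CPM in KO and 11.3, 10.5 and 10.3 CPM in WT. All KO libraries lay above WT, by little in KO 2, at a log2 fold change of 0.39 (SE 0.28), which was 0.06 after removal of the length and GC trend. Zfp827, which binds the NuRD complex, stood at -0.34 (SE 0.47) with overlap.

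The KRAB proteins with known targets were read in both groups. Zfp809, which silences murine leukaemia virus proviruses, had 17.6, 20.0 and 16.6 CPM in KO and 11.8, 20.1 and 10.9 CPM in WT. Zfp932, which acts on endogenous retroviruses, had 7.05, 6.56 and 5.85 CPM in KO and 1.57, 12.1 and 5.92 CPM in WT. Zfp445, which maintains imprints, had 121, 78.6 and 72.8 CPM in KO and 39.1, 82.4 and 49.8 CPM in WT. In all 3 the highest WT library was WT 2, and it reached into or above the KO range. Log2 fold changes were 0.33 (SE 0.30), -0.03 (SE 0.56) and 0.66 (SE 0.30), and that of Zfp568, a repressor of the placental Igf2 transcript, was 0.45 (SE 0.26). Without KO 1 the value of Zfp445 was 0.40, and that of Zfp568 was 0.28 with the length and GC trend removed. None of the 4 passed.

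Partners through which KRAB proteins repress were also read. Of 16 corepressor genes 0 passed, 11 had a log2 fold change above 0 and the median was 0.11. Trim28, the direct partner of the KRAB box, had 403, 362 and 384 CPM in KO and 595, 416 and 617 CPM in WT. All KO libraries lay below WT, with WT 2 nearest, and the log2 fold change was -0.50 (SE 0.21, edgeR adjusted p = 0.355), or -0.20 after removal of the length and GC trend. Setdb1 had 98.8, 71.8 and 85.4 CPM in KO and 86.3, 80.3 and 72.2 CPM in WT, a log2 fold change of 0.10 (SE 0.20). Chd3, a chromatin remodeller gene of the NuRD complex, had 98.5, 48.6 and 88.5 CPM in KO and 55.8, 31.4 and 33.3 CPM in WT. KO 2 lay within the WT range, and the log2 fold change was 0.97 (SE 0.31, edgeR adjusted p = 0.284). After removal of the length and GC trend it was 1.08 (edgeR adjusted p = 0.0958). The median of the 16 was -0.02 after removal of the length and GC trend. All KO libraries lay below WT for 2 of the 16, or 12.5%, against 7.96% of all genes, and above for 1, or 6.25%, against 10.1%. Beside Trim28 these were Uhrf1, lower at a log2 fold change of -0.39, and Atf7ip, higher at 0.40. Both are named after their values were seen.

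KRAB members varied together among the WT libraries, by more than their sums differed between the genotypes. Their TMM-normalised CPM summed to 2301, 2217 and 2049 in KO and 1455, 2863 and 1738 in WT. The sums averaged 2190 ± 128 CPM in KO and 2020 ± 745 CPM in WT (SD, n = 3 each), and all KO libraries lay between the lowest and the highest WT library. From the lowest to the highest library the sum differed 1.12-fold within KO and 1.97-fold within WT. For members without KRAB the sums were 5198, 4729 and 4814 CPM in KO and 4787, 4826 and 3963 CPM in WT, 1.10-fold apart within KO and 1.22-fold within WT.

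Gene by gene, WT 2 and WT 1 were often the extremes among KRAB members. Of the 161 KRAB members 90, or 55.9%, had their highest value in WT 2, against 20.1% of all genes, and 102, or 63.4%, had their lowest in WT 1, against 21.3%. WT 2 exceeded WT 1 in 130 KRAB members, with a median log2 difference of 1.15, and in 39 of 115 members without KRAB, with a median of -0.27, while 49.8% of all genes lay above 0. The range over the 3 WT libraries had a median of 1.26 log2 units in KRAB members, 0.72 in members without KRAB and 0.63 in all genes. The range over the 3 KO libraries was 0.44, 0.43 and 0.47. Median distances from each gene's WT mean were 0.33, 0.28 and 0.16 log2 units in KO and -0.57, 0.65 and -0.09 in WT for KRAB members. For members without KRAB they were 0.28, 0.11 and 0.11 in KO and 0.16, -0.05 and -0.11 in WT. Over all genes they were 0.05, 0.02 and 0.05 in KO. Of the KRAB members, 78.3%, 78.9% and 66.5% lay above their WT mean in KO, and 19.9%, 82.6% and 35.4% in WT. For members without KRAB these shares were 71.3%, 67.0% and 61.7% in KO and 67.0%, 41.7% and 27.8% in WT. They were not computed over all genes. In the edgeR fit 60.2% of KRAB members had a log2 fold change above 0, against 51.3% of all genes.

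GC content moved with this pattern. Across genes, which are not independent replicates, Spearman's rho between transcript GC content and the log2 difference of WT 2 over WT 1 was -0.64 over 10747 genes. Within the 161 KRAB members it was -0.83, and within the 115 members without KRAB -0.70. Each point shares the same pair of libraries and their depths. Over all genes, the rho of GC content with a library's deviation from the mean of the 6 was -0.21, -0.28 and -0.27 in KO and 0.62, -0.50 and 0.44 in WT. After removal of a trend on length and GC together, median distances of KRAB members from the WT mean were 0.19, 0.11 and 0.04 log2 units in KO. In WT they were -0.24, 0.28 and -0.003. WT 2 then still exceeded WT 1 in 126 of 161 KRAB members, with a median of 0.50. It did so in 54 of 115 members without KRAB, with a median of -0.05, and in 6520 of all 10926 genes, with a median of 0.10. What set the GC trend of a library was not tested.

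**Figure D3:**
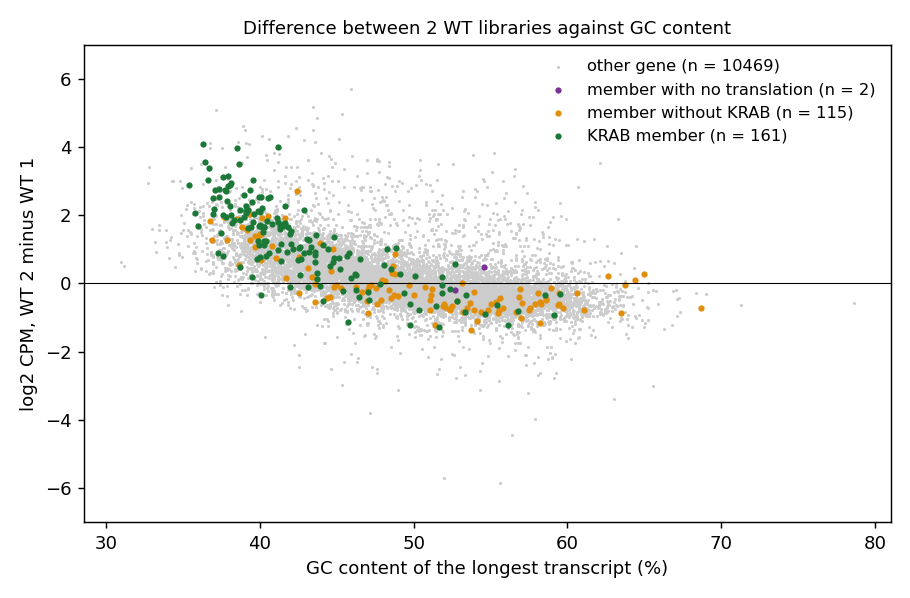
Log2 CPM of WT 2 minus WT 1 (vertical axis) against GC content of the longest transcript (horizontal axis, %) for tested genes with an annotated length. KRAB members in green lie mostly at low GC content and above 0, with a median difference of 1.15, and members without KRAB in orange run to higher GC content and lower values, with a median of -0.27.

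**Figure D4:**
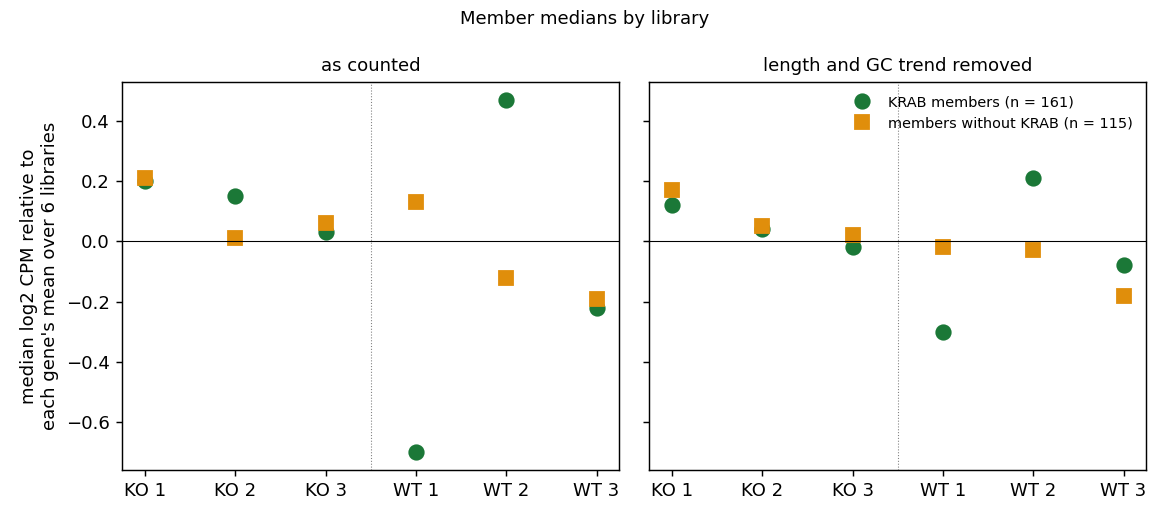
Median over members of log2 CPM relative to each gene's mean over the 6 libraries (vertical axis), by library, KO to the left of WT. Green circles are the 161 KRAB members and orange squares the 115 members without KRAB; the left panel shows levels as counted and the right panel after removal of a length and GC trend. WT 1 is lowest and WT 2 highest for KRAB members in both panels, with the KO libraries between them.

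The comparison of genotypes moved with the WT libraries used. Without WT 2 the median log2 fold change of all members was 0.48, with 67 members, or 24.0%, higher and 6, or 2.15%, lower at an unadjusted p under 0.05, against 13.3% of all genes higher and 8.75% lower, and 0 passed. In KRAB members alone the median was 0.59, with 43 of 161, or 26.7%, higher and 2, or 1.24%, lower. In members without KRAB it was 0.18, with 19.1% higher and 3.48% lower. Without WT 1 the KRAB median was -0.09, with 3, or 1.86%, higher and 9, or 5.59%, lower. Of all genes 6.84% were higher and 6.05% lower, so the lower share was near that of all genes. For members without KRAB the median was 0.14, with 12, or 10.4%, higher and 0 lower. Without the library labelled KO 1 the KRAB median was 0.06.

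Tandem clusters differed in how far the WT libraries lay apart. Members whose neighbours lay within 500 kb, at least 5 in a row, formed 12 clusters with 119 members, 96 of them KRAB genes. The cluster on chromosome 17 between 21008903 and 23564238 held 20 members, all KRAB, with a median GC content of 38.4%. Their median distances from the WT mean were 0.45, 0.31 and 0.33 log2 units in KO and -1.04, 1.28 and -0.23 in WT. WT 2 was highest in 17 of the 20 and WT 1 lowest in 16, and for 18 all 3 KO libraries lay within the WT range. The median log2 fold change between genotypes was near 0, at -0.0021.

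Zfp51 in this cluster stood at 17.1, 18.5 and 12.3 CPM in KO and 2.10, 36.1 and 18.7 CPM in WT. The cluster on chromosome 13 between 67038596 and 67827002 also held 20 members, all KRAB, with a median GC content of 39.1%. Median distances there were 0.21, 0.35 and 0.14 log2 units in KO and -1.05, 1.06 and -0.07 in WT. WT 2 was highest in 18 of the 20, WT 1 lowest in 18, and the median log2 fold change was -0.09. Zfp85 stood at 2.43, 6.56 and 4.42 CPM in KO and 1.05, 14.3 and 4.36 CPM in WT. With the length and GC trend removed, median distances of the chromosome 17 cluster were 0.24, 0.10 and 0.27 in KO and -0.38, 0.68 and -0.12 in WT, and those of the chromosome 13 cluster 0.05, 0.13 and 0.03 in KO and -0.56, 0.52 and 0.02 in WT. Paralogues such as Zfp729a and Zfp729b or Zfp874a and Zfp874b lie side by side in the chromosome 13 cluster, and reads shared by such near copies make their single values uncertain.

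**Figure D5:**
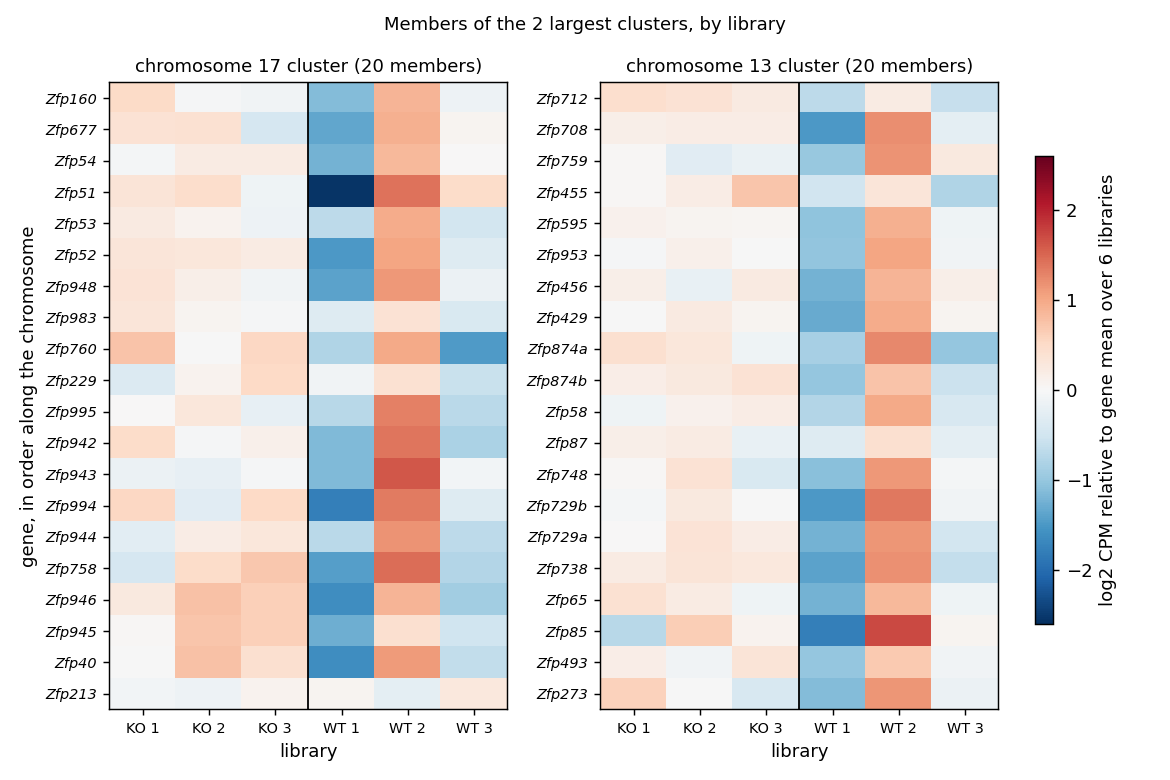
Log2 CPM relative to each gene's mean over 6 libraries (colour, red above and blue below) for the 20 members of the chromosome 17 cluster and the 20 of the chromosome 13 cluster, in rows in their order along the chromosome, with KO libraries to the left of the line and WT to the right. The WT 1 column is blue and the WT 2 column red in most rows, and the KO columns are paler.

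In the next cluster by size the WT libraries lay closer together. The 14 members between 29768552 and 30169750 on chromosome 7, which include Zfp74 and Zfp568, had a median GC content of 46.2% and log2 fold changes with a median of 0.34, 10 of 14 being above 0. Their median distances from the WT mean were 0.47, 0.41 and 0.24 in KO and -0.19, 0.42 and -0.08 in WT. The 8 members between 27731389 and 28380253 on chromosome 7 all had a log2 fold change above 0, with a median of 0.20. The groups overlapped in each of the 8, and 51.3% of all genes lay above 0. In the 12 between 32765496 and 33631779 on chromosome 17 the median log2 fold change was 0.23, and 0 of these 12 reached an unadjusted p under 0.05. None of the members in any of the 12 clusters passed the test over all genes.

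Exons of other genes overlap some members, 75 on the other strand and 33 on the same strand, and the strand setting of the counting is not given in the sources used here. Of the genes described with their levels, Zfp36, Zfp36l1, Zfp106, Zfp652, Zfp74, Zfp85, Zfp706, Zfp740 and Zfp862-ps are among the members with such an overlap on the other strand, and Zfp652 also on its own. Their counts are less certain for that reason.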

How the data were processed

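Germinal centre B cell RNA of 3 KO and 3 WT mice was compared, with groups and replicate numbers taken from the sample titles and genotypes. The authors deposited raw read counts by gene symbol, with a column for each mouse. The tools were STAR 2.5.2, featureCounts 1.5.2 and CASAVA and the build mm10, per the submitters' processing notes. The sources used here give no annotation, strand setting or treatment of reads with several matches.

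Counts were tested by edgeR 4.0.16 under R 4.3.3 with filterByExpr by group, TMM scaling and a robust quasi-likelihood fit without covariates. Tests were two-sided, with Benjamini-Hochberg adjustment over 10926 genes and a threshold of 0.05. Standard errors follow from the F statistic. The common biological coefficient of variation came to 30.8%. Library-wise log2 CPM used a prior count of 2. The tests were also run on simulated data, with levels and dispersions taken from these data after the main fit. A floor of 3 counts covers counting error only. Members, role groups, markers and alternatives were chosen with earlier results of these data known.

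Named were all members of the role groups, up to 10 members per direction by fold change at an unadjusted p under 0.05 (filled by p), the 5 highest per kilobase, the 3 on either side of the level limit, corepressor genes at an unadjusted p under 0.05 with Trim28 and Setdb1, and Kdm1a. Of the role groups, Zfp219, Zfp532, Zfp462 and Zfp57 lay below the level limit and 1 gene was not a row of the table.

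Lengths, GC content, coordinates and translations came from GENCODE vM21 (mm10), which matched 278 members (99.6%) and 98.4% of tested genes by symbol. KRAB boxes were found with a profile built in pyhmmer 0.12.3 from 157 windows of 41 residues at an E-value under 1e-05, and fingers by pattern. The GC and length trend was a spline with 4 degrees of freedom per library, entered as an offset.

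Alternatives changed the scaling (DESeq2 size factors, upper quartile, library size alone), the filter (none, or 5 CPM in 3 libraries or more), the tool (DESeq2 1.42.0, limma-voom from limma 3.58.1) or the level limit (1 or 5 CPM). Further ones used the replicate number as a block, thinned all libraries to the smallest total (of 11 draws, the one with the median count) or left out each library. No library was a repeat of another of its group, since chi-square per degree of freedom was 14.4 to 50.9.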

Additional observations from a re-analysis of the deposited data

How the results depend on the processing

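The count of members called was 0 in all settings but 2, edgeR with no filter on low counts and DESeq2, where Zfp287 made it 1. Genes called over the whole table numbered 18 with library size alone, 93 with no filter, 122 with DESeq2, 21 with the replicate number as a block, 20 with the length and GC trend removed and 1 to 24 when a library was left out, against 9. The 13 members at an unadjusted p under 0.05 became 24 with library size alone and 6 to 73 when a library was left out. Without the library labelled KO 1 and without WT 3 there were 6, without WT 1 24 and without WT 2 73. The median of the members ran from 0.03 to 0.48 over those 6 fits. Library size alone moved the median of all genes to 0.13, and that of the members to 0.25. The log2 fold change of Kdm1a ran from -1.93 to -0.88 when a library was left out. With the length and GC trend removed, the median of the corepressor genes was -0.02, that of KRAB members 0.06 and that of members without KRAB 0.14. Single genes moved toward 0 or away from it with that trend removed. The causes were not tested.

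Correlations of same-numbered libraries, taken on deviations from the group means, were 0.34, -0.05 and 0.44. Whether replicate numbers pair the mice cannot be told from them, since deviations from a mean of few libraries depend on each other. With the replicate number as a block 0 members passed, 17 had an unadjusted p under 0.05 and the median was 0.19. KO 1 correlated best with WT 1 and KO 3 with WT 3, while KO 2 correlated best with WT 1, at 0.20.

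For 51 genes followed over up to 16 settings, 804 values were obtained, since low genes dropped out of some fits. In 31 genes no sign change was seen among the settings that gave a value. With library size alone the log2 fold change was 0.08 for Zfp622, 0.0023 for Zfp346, 0.02 for Zfp687 and 0.12 for Zfp932. With the length and GC trend removed it was -0.0049 for Zfp326, 0.01 for Zfp346, -0.02 for Zfp91, 0.03 for Zfp335, -0.15 for Zfp148, 0.05 for Zfp687, -0.17 for Zfp644, -0.08 for Zfp608, 0.12 for Zfp932 and -0.03 for Setdb1. After thinning it was -0.39 for Zfp593, 0.07 for Zfp687 and -0.03 for Zfp609. Zfp593 was at -0.01 with DESeq2 size factors and -0.004 in DESeq2. Zfp932 was at 0.01 with upper-quartile scaling, 0.29 in limma-voom and 0.24 with the replicate block. When a library was left out the log2 fold change ran from -0.03 to 0.57 for Zfp36, -0.0043 to 0.55 for Zfp36l2, -0.14 to 0.16 for Zfp622, -0.09 to 0.12 for Zfp593, -0.59 to 0.36 for Zfp638, -0.27 to 0.12 for Zfp346, -0.22 to 0.53 for Zfp148, -0.05 to 0.28 for Zfp384, -0.22 to 0.05 for Zfp687, -0.24 to 0.62 for Zfp644, -0.02 to 0.51 for Zfp143, -0.49 to 0.81 for Zfp932, -1.78 to 0.70 for Zfp97, -0.95 to 0.04 for Zfp873 and -0.03 to 0.22 for Setdb1.

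The median over members of a member's median count in the WT libraries was 40, and whether depth set the number of calls was not tested.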
